A study of Mus musculus with 20 samples.

Results

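The CCAAT/enhancer binding proteins (C/EBPs) Cebpa, Cebpb, Cebpd and Cebpg were followed in sorted follicular and non-follicular CD4 T cells of mouse peripheral lymph nodes (pLN) and Peyer's patches (PP). A member was any probe that the array annotation assigned to these 4 gene symbols. This gave 4 probes, 1 per gene, out of 39429 probes for 30342 genes. The members were selected on these same normalised intensities, in which Cebpa and Cebpd stood out, so their levels and differences are a description and carry no test. All 4 probes passed the filter on dim probes, Cebpa through all groups of 2 arrays but naive T and Cebpd through its follicular groups and Treg of PP.

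All mice were of the strain B6.Cg-Foxp3<tm1Mal>, in which green fluorescent protein (GFP) reports Foxp3, the lineage factor of regulatory T (Treg) cells. They were 8 to 14 weeks old and of mixed sex, and each sample was pooled from 8 to 15 of them, so the spread between samples is a spread between pools. Mice for pLN received keyhole limpet haemocyanin in alum under the skin, and their nodes were taken on day 12 (d12) or day 25 (d25), whereas the labels give no immunisation day for PP. B220-negative CD4 cells were sorted as naive T (GFP-, low PD1, GL7-), T follicular helper or TFH (GFP-, high PD1), Treg (GFP+, low PD1, GL7-) and T follicular regulatory or TFR cells (GFP+, high PD1, irrespective of GL7). TFH cells of pLN were GL7+, and in PP GL7+ and GL7- TFH cells were sorted separately in place of naive T cells. The 8 groups of pLN d12 and PP had 2 single-colour arrays each and the 4 groups of pLN d25 had 1 each, which makes 12 groups and 20 arrays.

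C/EBPs are transcription factors with a basic leucine zipper. They bind DNA as dimers, with each other or with relatives such as Atf4, and are best known for directing the formation of granulocytes, liver and fat cells. Cebpa drives differentiation and slows the cell cycle, Cebpb and Cebpd are induced by inflammatory cytokines, and Cebpg lacks a transactivation domain and often restrains its partners. In CD4 T cells, C/EBP proteins are known to act on the Il4 gene.

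Each gene was read by a single 60-base probe, so no second probe can check a level. The first 30 bases of each probe are shown, 5′ to 3′, because every value below rests on them. Positions are in mm9, as the array annotation gives them: chr7:35906517-35906576 for Cebpa, chr2:167515828-167515887 for Cebpb, chr16:15888459-15888518 for Cebpd and chr7:35835477-35835536 for Cebpg, the last on the minus strand. Whether the probes lie in coding sequence or untranslated region was not determined.
Cebpa: ttttgttttggttttgctctgattcttgcc
Cebpb: agaggcgtatgtatattttgagaacctttt
Cebpd: gacatttccgacagacttttgtagataaga
Cebpg: aaattaagttgctgacaaaggaattaagtg
The probes of Cebpa and Cebpg are 70981 bases apart on chromosome 7, with 1 protein-coding gene between these genes in GRCm38, yet the levels of Cebpa and Cebpg differed widely in their range across the groups.

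Promoters are shown because 3 of the members were high in the same groups while Cebpg varied little. RefSeq promoters (GRCm38.p6) were found for 3 of the 4 members, all but Cebpd. The 250 bases before the start are given, in the direction of the gene: chr7:35119043-35119292 on the plus strand for Cebpa, chr2:167688665-167688914 on the plus strand for Cebpb and chr7:35056567-35056816 on the minus strand for Cebpg. Capitals mark matches on either strand to TTGCG (core of the C/EBP site), TGACG (core of the cyclic AMP response element), the CCAAT box, the TATA box as TATAAA, and the GC box as GGGCGG.
Cebpa: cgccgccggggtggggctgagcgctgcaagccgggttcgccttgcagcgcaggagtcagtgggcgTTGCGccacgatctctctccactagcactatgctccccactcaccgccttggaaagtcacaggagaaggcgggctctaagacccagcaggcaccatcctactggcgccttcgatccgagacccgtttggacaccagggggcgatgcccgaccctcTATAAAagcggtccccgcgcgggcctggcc
Cebpb: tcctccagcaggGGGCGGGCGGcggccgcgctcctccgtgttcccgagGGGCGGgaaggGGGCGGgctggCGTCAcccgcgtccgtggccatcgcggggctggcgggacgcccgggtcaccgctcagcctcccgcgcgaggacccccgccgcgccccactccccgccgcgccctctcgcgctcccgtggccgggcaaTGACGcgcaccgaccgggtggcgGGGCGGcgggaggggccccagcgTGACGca
Cebpg: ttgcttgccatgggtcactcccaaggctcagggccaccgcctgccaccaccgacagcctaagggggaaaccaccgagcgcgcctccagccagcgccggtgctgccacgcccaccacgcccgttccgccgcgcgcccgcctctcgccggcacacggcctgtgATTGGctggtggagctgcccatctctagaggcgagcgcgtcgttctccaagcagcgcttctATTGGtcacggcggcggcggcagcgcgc
The Cebpa window held 1 TTGCG, 185 bases before the start, and a TATAAA at 30 bases. The Cebpb window held 3 TGACG matches, at 180, 53 and 7 bases, and 5 GGGCGG matches, of which those at 238 and 234 bases overlap. The Cebpg window held neither TTGCG nor TGACG, but CCAAT on its minus strand at 89 and 28 bases. Of 32851 RefSeq promoter windows of the same length, 14.5% held TTGCG, 17.8% held TGACG, 33.8% held CCAAT, 12.4% held TATAAA and 32.7% held GGGCGG, and the palindrome TTGCGCAA was in 0.164% of them and in none of these 3. These matches describe the letters alone, and no binding was measured.

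The arrays filled 5 slides of 4, namely slides 1 and 2 for pLN d12, slide 3 for pLN d25, and slides 4 and 5 for PP. Every slide thus held 1 tissue, and tissue and slide cannot be told apart in any comparison of PP with pLN. Of all probes, 43% to 58% were above background per array and none was saturated. The number of arrays limits the precision of every value. All 8 T-cell markers were above background on all 20 arrays. Slide 4 carried more B-cell and epithelial transcripts than the rest. The summed intensity of 12 B-cell markers was 27470 to 191500 on slide 4, 6861 to 16350 on slide 5 and 4736 to 26850 in pLN, and that of 9 epithelial markers 15750 to 44140, 1599 to 2647 and 698.9 to 2400. Of 12 myeloid markers, the cell type in which Cebpa is best known, Lyz2, Csf1r, Itgam and Csf3r were above background on all 20 arrays, Fcgr3 on 17, Adgre1 on 12, Itgax on 9, S100a9 on 8, Spi1 on 7, S100a8 on 4, Cd14 on 1 and Mpo on none. Lyz2 read 557 and 882 in naive T and 2387 and 2237 in TFH cells of pLN d12, and Csf1r 427 and 436 against 1009 and 954. Neither difference was called in the test described below (log2 1.72, SE 1.04 for Lyz2 and log2 1.19, SE 1.02 for Csf1r). The other probes of Csf1r gave -0.17 and -0.45 in that step. From Treg to TFR cells of pLN d12, Lyz2 ran from 494 and 838 to 1419 and 1058. Csf1r ran from 368 and 401 to 891 and 557, while its other probes gave -0.67 and -0.40 log2. In PP, Lyz2 was at 3528 and 368 against 3381 and 488, and Csf1r at 956 and 123 against 995 and 149. The part of Lyz2 and Csf1r in the levels of the members was not tested. The sum of the 12, most of it from Csf3r, was 62810 to 96650 in pLN, 84820 to 102600 on slide 4 and 75510 to 82880 on slide 5. Csf3r alone gave 46447 to 88179 and Itgam 6297 to 31914 on every array, naive T cells included. In sorted pools, fewer cells with a transcript and less of it per cell cannot be told apart.

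Cebpa was low in naive T and Treg cells and high in follicular cells of both tissues. Normalised intensities in pLN d12 were 32 and 88 in naive T cells, 350 and 165 in Treg, 3549 and 2389 in TFR, and 16033 and 8316 in TFH cells. The naive T arrays were not above background, and the 4 pLN groups did not overlap. In PP, Cebpa read 635 and 231 in Treg, 41597 and 21442 in TFR, 28121 and 15962 in GL7- TFH, and 38077 and 24809 in GL7+ TFH cells. All follicular PP arrays thus lay above every Treg array and, with 1 exception, above the pLN TFH arrays, the GL7- array of slide 5 falling just under the higher pLN TFH value. The single d25 arrays read 92 in naive T, 128 in Treg, 2226 in TFR and 11947 in TFH cells, with naive T and Treg not above background. In order of group means, GL7+ TFH, TFR and GL7- TFH of PP came first, then TFH of d25 and d12, TFR of d12 and d25, and Treg of PP, d12 and d25 before naive T. The 3 follicular PP groups overlapped each other, as did TFH of d12 with d25 and Treg of PP with d12.

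The step of Cebpa from naive T to TFH in pLN d12 was 7.76 on the log2 scale (SE 0.66, n = 2 arrays per group). Because naive T cells lay under background, this is stated as a bound of at least 188-fold. Such bounds set the mean of the bright group against, per array, the higher of the dim probe's own signal and the lowest signal of a probe above background. They hold for the group means under the processing used here. They allow neither for the spread between arrays nor for another background correction. Within the slides the step was 8.95 on slide 1 and 6.57 on slide 2. At d25, with 1 array per group and no replicate check, it was at least 102-fold. From Treg to TFR cells Cebpa differed 12.1-fold in pLN d12 (log2 3.60, SE 0.66) and 78.0-fold in PP (log2 6.29, SE 0.66). The step was thus larger in PP by 2.69 log2 (SE 0.94). Without slide 4 the PP step was 6.54, from 1 array per group. Leaving out 1 array at a time, the step ran from 3.05 to 4.14 log2 in pLN d12 and from 5.56 to 7.02 log2 in PP. At d25 the step was at least 15.5-fold.

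**Figure D1:**
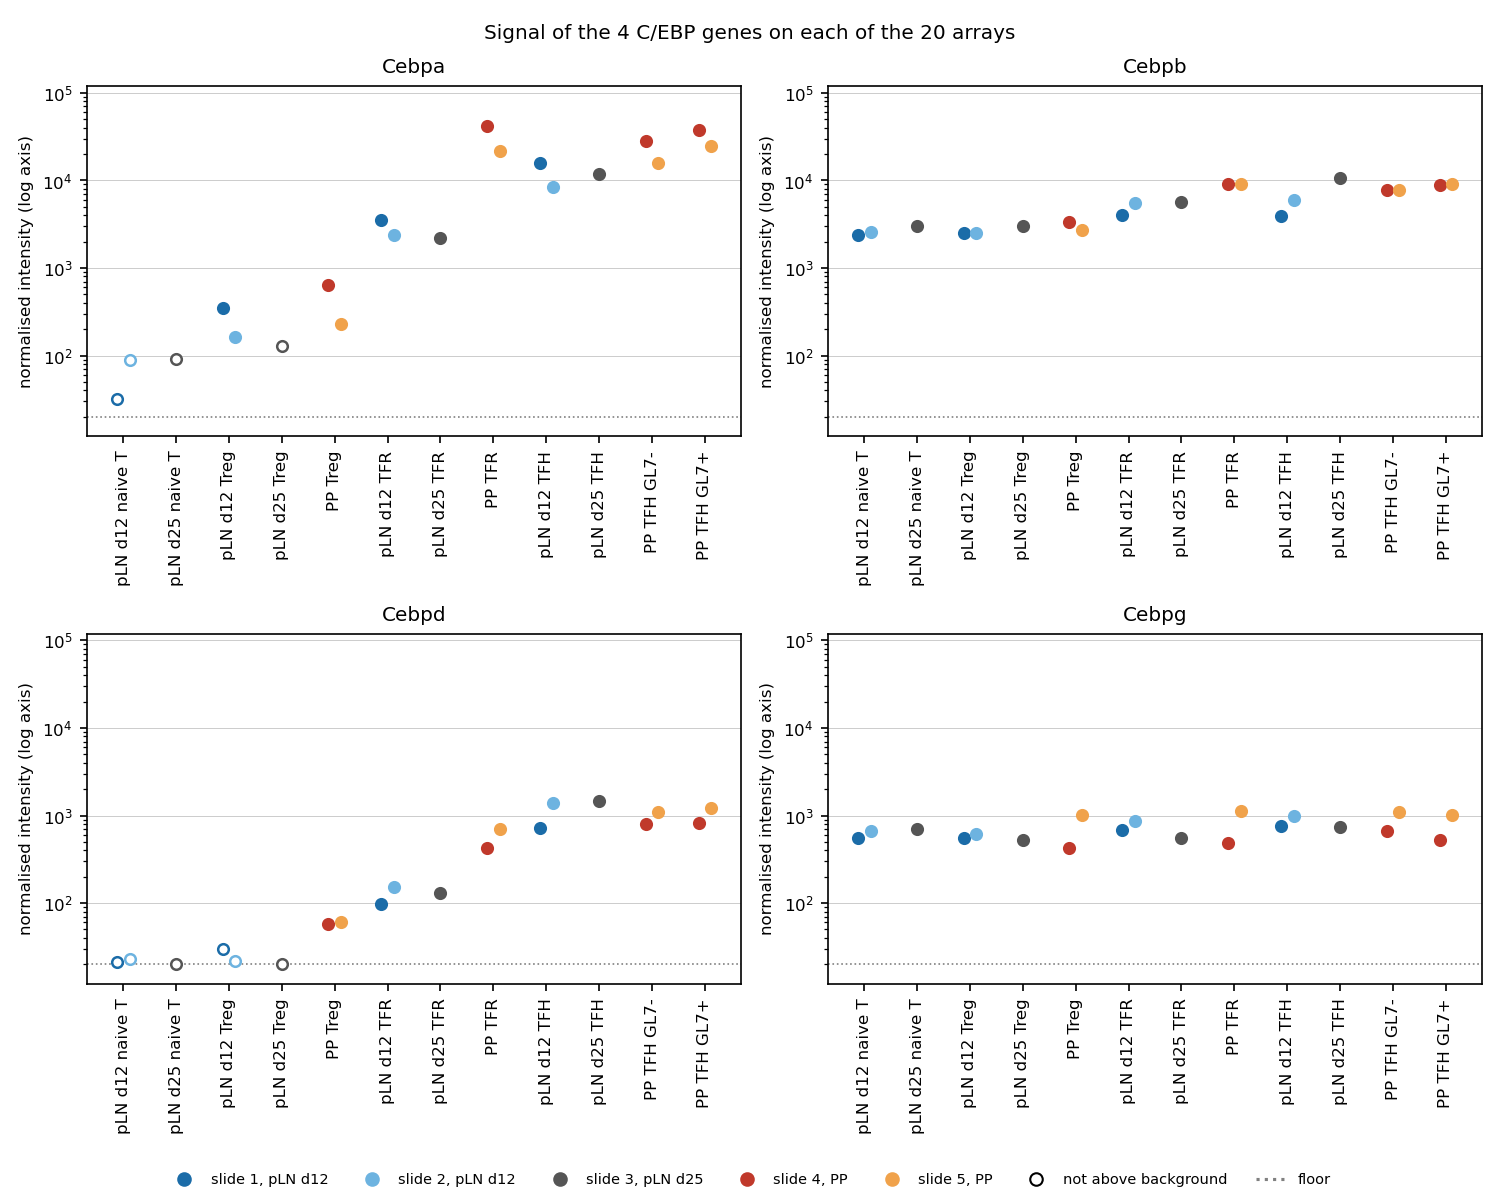
Normalised intensity (log axis) of the 4 C/EBP genes on each of the 20 arrays, by group. Colours stand for slides, open points for arrays on which the probe was not above background, and the dotted line for the floor of 20. Cebpa and Cebpd span the widest ranges, with naive T and Treg cells lowest, whereas Cebpg stays between 429 and 1133.

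TFR cells were where the tissues parted most for Cebpa. PP TFR cells were 10.3-fold above pLN d12 TFR cells (log2 3.36, SE 0.66), GL7+ TFH cells of PP were 2.66-fold above TFH cells of pLN d12 (log2 1.41, SE 0.66) and Treg cells differed 1.59-fold with overlapping arrays (log2 0.67, SE 0.66, and -0.06 to 1.40 on leaving out 1 array). The difference between the tissues was larger in TFR than in TFH cells by 1.95 log2 (SE 0.94). Accordingly, TFR cells of pLN d12 had 3.97-fold less Cebpa signal than TFH cells (log2 -1.99, SE 0.66, -2.18 and -1.80 within the slides), whereas in PP these groups overlapped (log2 -0.04, SE 0.66). Within PP, GL7+ TFH cells were above GL7- TFH cells by 0.44 and 0.64 log2 on the 2 slides, a mean difference of 0.54 log2 whose SE of 0.66 includes the offset between the slides. Slide 4 itself gave 1.53-fold to 2.75-fold more Cebpa signal than slide 5 in the 4 PP groups.

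Cebpb was well above background in every group and changed over a narrower range. In pLN d12 it read 2354 and 2576 in naive T, 2518 and 2535 in Treg, 4026 and 5463 in TFR, and 3933 and 5913 in TFH cells. Naive T and Treg cells overlapped, TFR and TFH cells overlapped, and the follicular groups lay above the other pair. In PP the values were 3314 and 2716 in Treg, 9016 and 9019 in TFR, 7846 and 7758 in GL7- TFH, and 8849 and 9190 in GL7+ TFH cells. At d25 they were 3038 in naive T, 3041 in Treg, 5706 in TFR and 10793 in TFH cells, the last being the highest of all 20 arrays.

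From naive T to TFH cells Cebpb differed 1.96-fold in pLN d12 (log2 0.97, SE 0.22) and 3.55-fold at d25, without a replicate there. From Treg to TFR cells it differed 1.86-fold in pLN d12 (log2 0.89, SE 0.22) and 3.01-fold in PP (log2 1.59, SE 0.22), with 1.73 on slide 5 alone. The PP step was larger by 0.70 log2 (SE 0.31). Between the tissues, TFH and TFR cells of PP were 1.87-fold and 1.92-fold above those of pLN d12 (log2 0.90 and 0.94, SE 0.22 each), so that the tissue difference of Cebpb in TFR cells was 0.04 log2 (SE 0.31) from that in TFH cells. The Treg cells of the tissues differed 1.19-fold. GL7+ TFH cells of PP lay above GL7- TFH cells without overlap, by 0.17 and 0.24 log2 on the 2 slides (mean 0.21, SE 0.22). TFR and TFH cells did not differ beyond their spread in pLN d12 (log2 -0.04, SE 0.22) or in PP (log2 0.00, SE 0.22).

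Cebpd was near the floor of 20 outside the follicular cells. Naive T cells read 21 and 23 at d12 and 20 at d25, and Treg cells of pLN 30 and 22 at d12 and 20 at d25, none of them above background. TFR cells of pLN read 98 and 152 at d12 and 132 at d25, and TFH cells 724 and 1376 at d12 and 1460 at d25. In PP the probe read 58 and 60 in Treg, 423 and 708 in TFR, 800 and 1111 in GL7- TFH, and 819 and 1204 in GL7+ TFH cells. The TFH groups of pLN d12 and PP overlapped, the d25 TFH array lay above them all, TFR cells of PP came next and TFR cells of pLN lay lower again.

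The step of Cebpd from naive T to TFH cells was at least 16.2-fold in pLN d12 and at least 12.5-fold at d25. From Treg to TFR cells it was at least 2.36-fold in pLN d12 and 9.32-fold in PP (log2 3.22, SE 0.38, with 3.56 on slide 5). At d25 no bound above 1 could be given for that step. TFR cells carried less Cebpd signal than TFH cells in both tissues. The difference was 8.16-fold in pLN d12 (log2 -3.03, SE 0.38) and 1.81-fold in PP (log2 -0.86, SE 0.38, -0.95 and -0.77 within the slides). Cebpd of TFR cells was 4.48-fold higher in PP than in pLN d12 (log2 2.16, SE 0.38), while TFH cells of PP and pLN d12 overlapped (log2 -0.01, SE 0.38). The tissue difference was thus 2.17 log2 larger in TFR than in TFH cells (SE 0.54). Treg cells of PP were at least 1.13-fold above those of pLN d12. GL7+ and GL7- TFH cells overlapped (log2 0.07, SE 0.38).

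Cebpg was above background on all arrays, between 429 and 1133, and its groups overlapped almost throughout. In pLN d12 it read 559 and 664 in naive T, 547 and 615 in Treg, 686 and 864 in TFR, and 758 and 986 in TFH cells, and at d25 702, 528, 560 and 744. The d12 follicular arrays lay above the other d12 arrays, by 0.44 and 0.57 log2 for TFH against naive T and by 0.33 and 0.49 log2 for TFR against Treg on the 2 slides. In PP the spread followed the slide and not the cell type. Slide 4 gave 429 in Treg, 481 in TFR, 662 in GL7- and 530 in GL7+ TFH cells, and slide 5 gave 1026, 1133, 1095 and 1019, which is 1.65-fold to 2.39-fold more. The largest of the 6 differences of Cebpg was 0.50 log2 (SE 0.51), with all arrays. As the model shares 1 spread over all groups, this SE includes the offset between the slides of PP. Without slide 4, Cebpg was 0.82 log2 higher in Treg and 0.56 log2 higher in TFR cells of PP than of pLN d12. Leaving out 1 array gave -0.71 to 0.82 over the comparisons of PP with pLN d12, so their direction was not settled. From Treg to TFR cells of PP, the within-slide steps were 0.16 and 0.14 log2, and the arrays of these groups overlapped. Leaving out 1 array there sets unlike slides against each other.

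**Figure D2:**
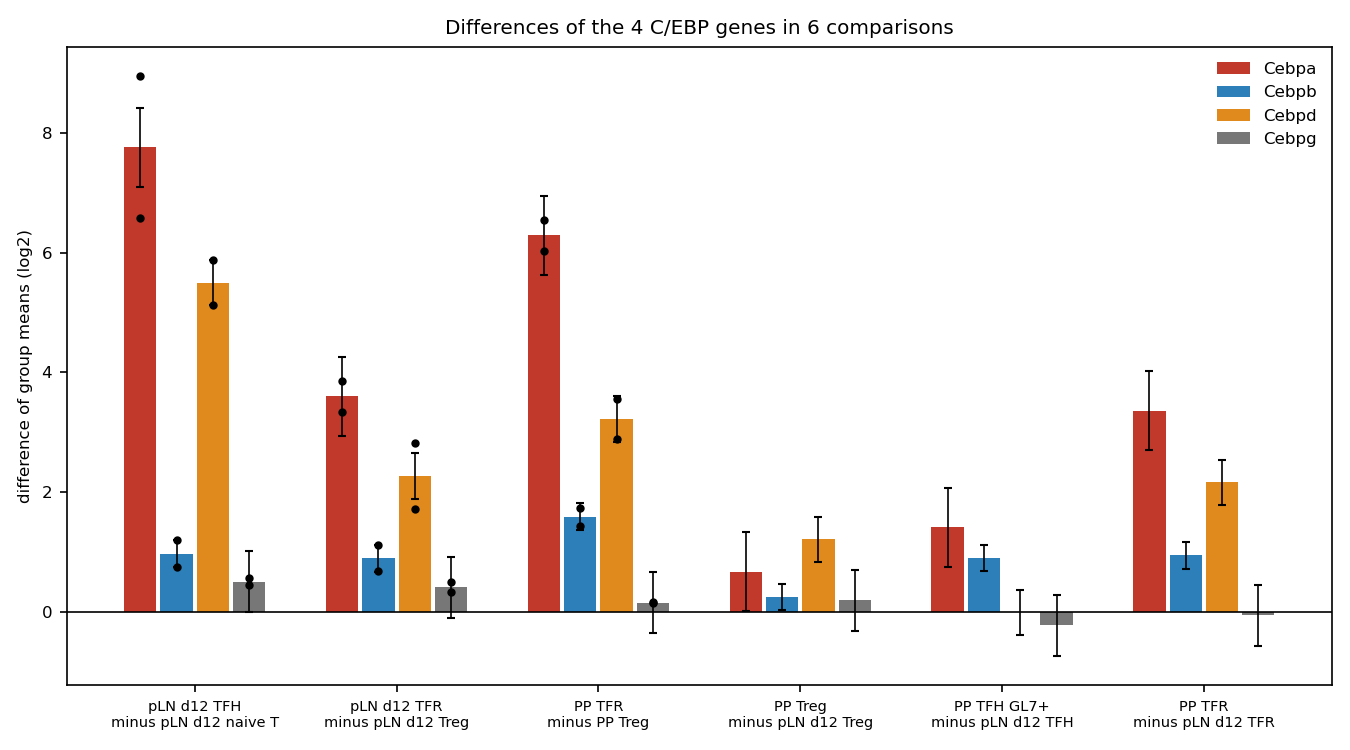
Differences of group means (log2) of the 4 C/EBP genes in 6 comparisons. Bars show the difference from the model of all arrays, error bars its SE, and black points the difference within each slide where both groups shared slides. Bars of Cebpa and Cebpd against naive T and of Cebpd against pLN Treg cells are no exact differences, because the lower group was not above background. Cebpa differs by 6.29 from Treg to TFR cells of PP, whereas no bar of Cebpg exceeds 0.50.

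Counted over the 4 members, the arrays of the groups did not overlap and the member was higher in 4 of 4 for TFH against naive T in pLN d12, where 23.8% of all tested probes were higher in that way. The count was 4 of 4 for TFR against Treg in pLN d12 (24.7% of tested probes) and 3 of 4 in PP (21.5%). For PP against pLN d12 it was 2 of 4 in Treg (15.8%), 2 of 4 in TFH (24.5%) and 3 of 4 in TFR cells (25.4%). As the members were chosen for these values, the counts are given beside the background and nothing is read from them.

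Over the 12 group means, the range of a member was 9.17 log2 for Cebpa, 6.19 for Cebpd, 2.13 for Cebpb and 0.71 for Cebpg. The lowest groups of Cebpa and Cebpd were not above background, so their ranges are measured values with an unresolved lower end. The median tested probe spanned 1.2 log2, and 78.8% and 19.7% of tested probes spanned less than Cebpb and Cebpg, respectively. Across the 12 group means, which share slides and the same contrast of follicular with other cells, Cebpa correlated with Cebpd (r = 0.96) and Cebpb (r = 0.92), and Cebpb with Cebpd (r = 0.91). Cebpg correlated less, with r = 0.74 for Cebpd, 0.70 for Cebpa and 0.56 for Cebpb. These are descriptions over 12 points.

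The 5 named genes whose group means followed each member most closely were ranked by Pearson's r over the same 12 groups. For Cebpa they were Mapre2 (r = 0.996), Phlpp2 (0.993), Pdlim7 (0.990), Jdp2 (0.989) and S100a11 (0.989). Jdp2 encodes another basic leucine zipper factor and spanned 7.33 log2, the widest of these 5. For Cebpb they were Gpr162 (0.972), Chdh (0.972), Bag3 (0.964), Kif3a (0.963) and Dram1 (0.961), and Chdh did not exceed a mean of 76. For Cebpd they were Vipr2 (0.994), a receptor for vasoactive intestinal peptide, Il4 (0.991), Gm8075 (0.990), H2al1o (0.989) and Hmox1 (0.987), the haem oxygenase. For Cebpg the highest was Ppwd1 with r = 0.917, and without slide 4 it was 0.794, while that of Mthfsd, another of its 5, went from 0.907 to 0.12. For the other 3 members, r stayed at 0.941 or above without slide 4.

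The rest of the C/EBP pathway was covered by 51 genes in 4 lists, namely relatives and partners, receptors and factors of signals that induce C/EBP genes, genes that control C/EBP amount and activity, and known C/EBP targets of myeloid, liver and fat cells. The last list also held the T-cell cytokine Il4. The lists were tested with limma across all 22264 tested probes, and a gene was called at a Benjamini-Hochberg adjusted p below 0.05 and at least 1 log2. Of the 51 genes 43 were tested. From naive T to TFH cells in pLN d12, 9 rose and 7 fell (9.27% of all tested probes were called higher and 5.48% lower). From Treg to TFR cells, 5 rose and 5 fell in pLN d12 (5.79% of probes higher and 2.56% lower) and 7 rose and 8 fell in PP (6.23% higher and 3.02% lower). Between PP and pLN d12, 1 was higher and 2 were lower in Treg cells (1.82% higher and 0.422% lower), and 6 were higher and 3 lower in TFR cells (5.74% higher and 5.39% lower). In TFH cells limma called none of the 43 (2.36% of probes higher and 2.18% lower), with 13 at an unadjusted p below 0.05. With slide as a random block, the counts between the tissues were 0 in Treg, 0 in TFH and 3 in TFR cells. Fits of the 4 compared arrays alone called 8, 1, 0, 0, 0 and 2 genes for TFH against naive T, TFR against Treg of pLN and of PP, and PP against pLN for Treg, TFH and TFR. The median difference of the 43 genes was -0.06, -0.16, -0.08, 0.00, -0.08 and -0.03 log2 in these 6 comparisons in the same order, next to -0.09, -0.08, -0.05, -0.05, 0.03 and 0.00 for all tested probes.

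Among relatives and partners, 8 of 9 genes were tested. Cebpe, the granulocyte member of the family, failed the filter, at the floor on 18 arrays and at 76 and 47 in Treg and TFR cells of slide 4. Nfil3, a basic leucine zipper repressor that acts in lymphocytes, rose from naive T to TFH cells (226 and 282 against 4345 and 3315, log2 3.91, SE 0.28, limma adjusted p = 1.1e-05). It also rose from Treg to TFR cells in pLN d12 (log2 1.75, SE 0.28, limma adjusted p = 0.00319) and in PP (log2 1.79, SE 0.28, limma adjusted p = 0.00241). Dbp, a clock-controlled relative that activates transcription, fell in all of the 3 steps, from naive T to TFH cells (log2 -1.52, SE 0.16, limma adjusted p = 9.39e-05) and from Treg to TFR cells of pLN d12 (log2 -1.16) and of PP (log2 -1.56). Between the tissues, Dbp was called lower in TFR cells of PP than of pLN d12 (log2 -1.08, SE 0.16, limma adjusted p = 0.00215). That call was lost with the compared groups alone in the fit (adjusted p = 0.102). The partner Atf4, a stress-response factor, differed by 0.05, 0.00 and 0.00 log2 in the 3 steps and was not called. Ddit3, a partner that blocks C/EBP binding, was lower by less than 1 log2 and was therefore not called (log2 -0.93, SE 0.13, limma adjusted p = 0.000714 for TFH against naive T, and log2 -0.98, SE 0.13, limma adjusted p = 0.00144 for TFR against Treg of pLN d12). In Treg cells of PP against pLN d12, Hlf was called higher and Tef lower, and neither was called with slide as a random block or without slide 4.

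**Figure D3:**
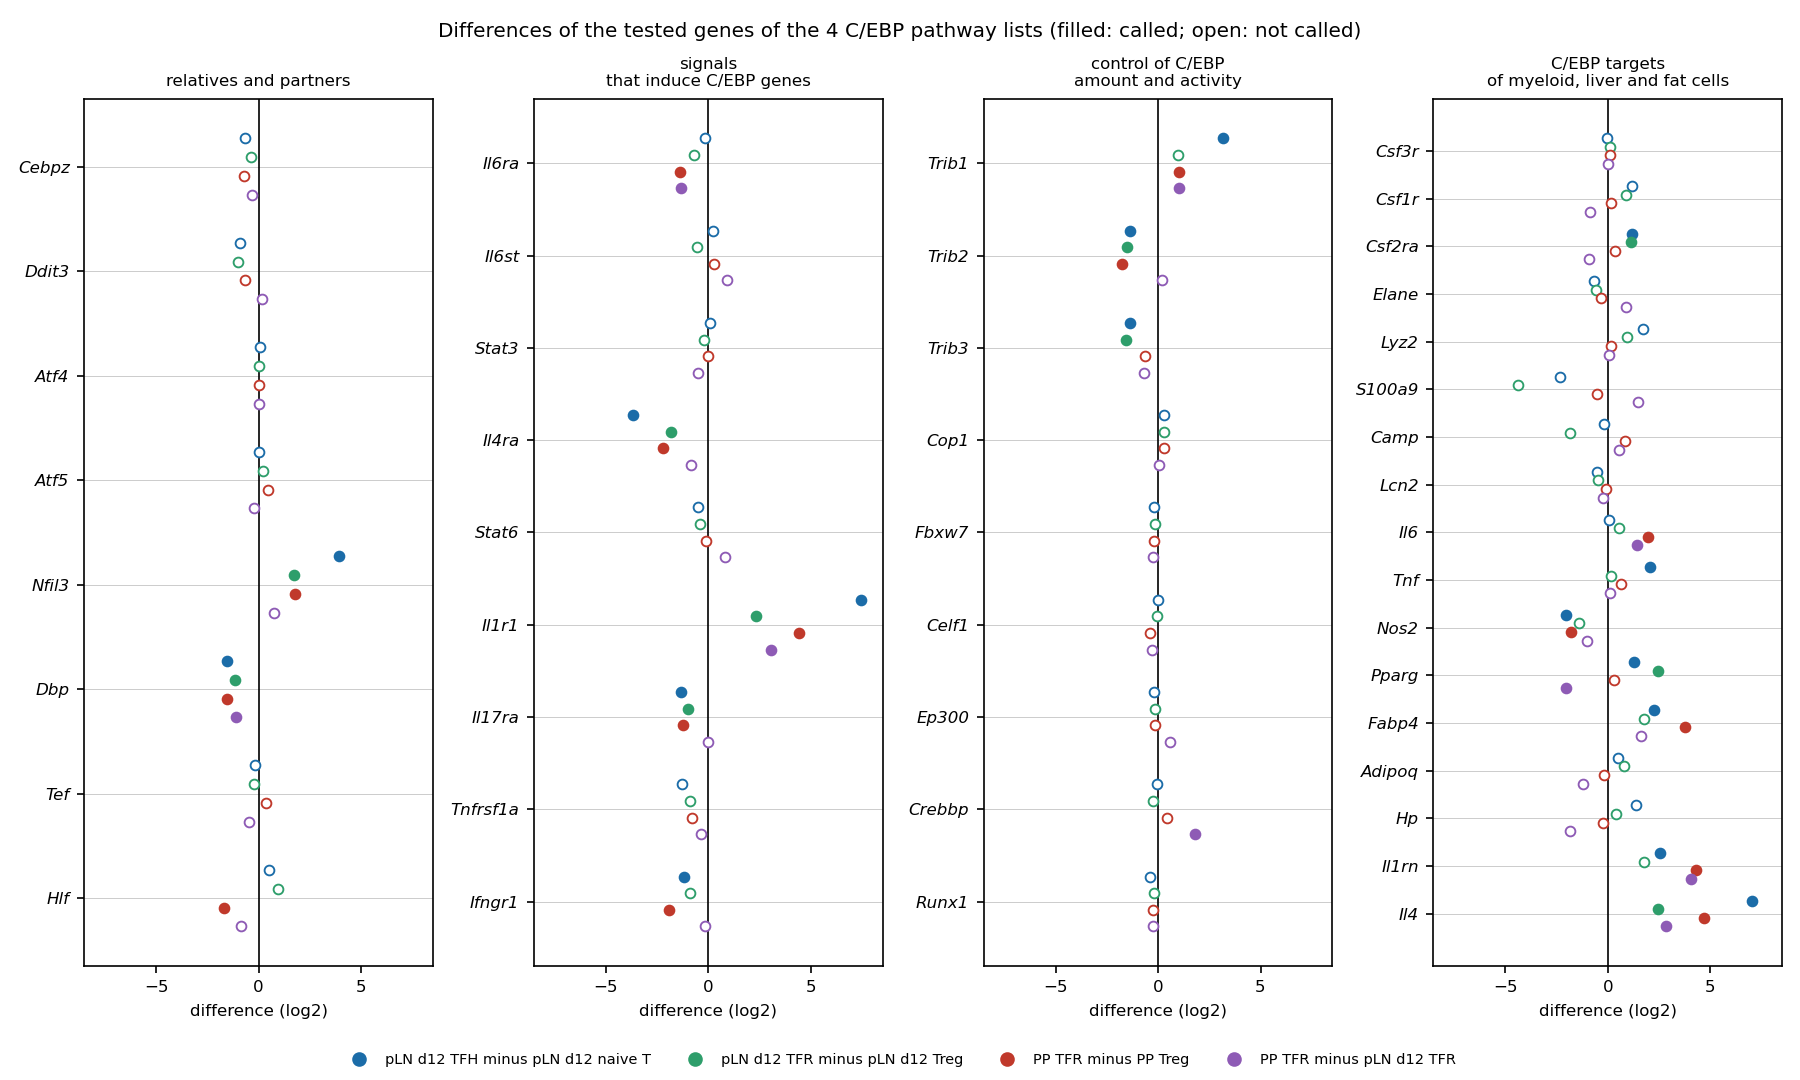
Differences of group means (log2) of the 43 tested genes in 4 C/EBP pathway lists, in 4 comparisons given by colour. Filled points were called (limma adjusted p below 0.05 and at least 1 log2), open points were not. From naive T to TFH cells Il4 differs by 7.06 and Il4ra by -3.65, while the point of Il1r1 is no exact difference, because its naive T arrays were not above background (at least 70.7-fold).

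Among the 9 signalling genes, the receptors moved in opposite ways. Il1r1, the signalling receptor of interleukin-1, read 20 and 30 in naive T cells, under background, and 5720 and 3308 in TFH cells of pLN d12, at least 70.7-fold more (limma adjusted p = 2.79e-05). In PP it read 104 and 70 in Treg and 2168 and 1519 in TFR cells (log2 4.41, SE 0.63, limma adjusted p = 0.00137), and without slide 4 this difference was 4.43 log2 with an adjusted p of 0.108. In pLN d12 it read 92 and, not above background, 20 in Treg and 323 and 146 in TFR cells, with a call (log2 2.34, limma adjusted p = 0.039) that was lost without either TFR array or without Treg replicate 2 (adjusted p 0.0549 to 0.258). TFR cells of PP were above those of pLN d12 (log2 3.06, limma adjusted p = 0.00972), with an adjusted p of 0.058 with slide as a random block and 0.140 without slide 4. Il4ra, the receptor chain for interleukin-4 that signals through Stat6, fell from naive T to TFH cells (4600 and 3992 against 334 and 349, log2 -3.65, SE 0.32, limma adjusted p = 3.45e-05). It also fell from Treg to TFR cells, with log2 -1.83 in pLN d12 and -2.19 in PP (limma adjusted p = 0.005 and 0.00152). The pLN call was lost without TFR replicate 1 or Treg replicate 2 (adjusted p = 0.0515 and 0.0532). Ifngr1, an interferon-γ receptor chain, fell from naive T to TFH cells (log2 -1.17) and from Treg to TFR cells in PP (53038 and 67653 against 11606 and 21760, log2 -1.91, limma adjusted p = 0.00224). The call of Ifngr1 for TFH cells was lost without any 1 of the 4 arrays (adjusted p 0.0707 to 0.0904). Il17ra, the receptor of interleukin-17, fell in the 3 steps (log2 -1.32, -1.01 and -1.24), with calls that were each lost without at least 1 array (adjusted p 0.0624 without TFH replicate 1, 0.166 to 0.19 without any 1 of the pLN arrays, and 0.0607 to 0.151 without either PP TFR array or PP Treg replicate 2). Il6ra, the receptor of interleukin-6, was called lower in PP TFR cells only, with log2 -1.40 against PP Treg and -1.32 against pLN d12 TFR cells. The first of these calls was lost in the limma fit of the 4 compared arrays alone (adjusted p = 0.112). It was also lost without slide 4 (log2 -1.58) and without PP Treg replicate 2 (log2 -1.25). The second of these calls was lost with slide as a random block (adjusted p = 0.099) and without PP TFR replicate 2 or pLN d12 TFR replicate 1 (0.051 and 0.0766). Stat3 and Stat6, the factors downstream, were called in none of the 6 comparisons.

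Among the 9 genes that control C/EBP amount and activity, only the Tribbles family and Crebbp had calls. Tribbles proteins are pseudokinases, of which Trib1 and Trib2 bring C/EBPα to the ubiquitin ligase Cop1 for degradation. Trib1 rose from naive T to TFH cells (226 and 334 against 2809 and 2148, log2 3.16, SE 0.24, limma adjusted p = 1.45e-05), and its other probes gave 1.38 and 3.85. It was also called higher in TFR than Treg cells of PP (log2 1.04, limma adjusted p = 0.0183), where its other probes gave -0.12 and 0.93. A further call was for TFR cells of PP over pLN d12 (log2 1.03, limma adjusted p = 0.0166), with 0.06 and 0.45 from the other probes. With scaling to the 75th percentile alone, these 2 differences in TFR cells were 0.98 and 0.90 and not called. Their calls were lost in 6 and 7 of 13 alternatives. Among these were the fit of the compared groups alone (adjusted p = 0.159 and 0.111) and, for the second, slide as a random block (0.126). Trib2 fell from naive T to TFH cells (log2 -1.36) and from Treg to TFR cells of pLN d12 (log2 -1.49) and of PP (log2 -1.77, limma adjusted p = 0.00215 in pLN and 0.000636 in PP). In pLN d12 Trib3 fell from naive T to TFH (log2 -1.39) and from Treg to TFR cells (log2 -1.56). Both Trib3 calls rested on the full set of arrays, as they were lost on leaving out either TFH array or naive T replicate 1 in the first (adjusted p 0.0591 to 0.137), and either TFR array or Treg replicate 1 in the second (0.0502 to 0.114). Trib3 was also called lower in Treg cells of PP than of pLN d12, without a call once slide was a random block (adjusted p = 0.0833). Cop1 itself, Fbxw7, Celf1, Ep300 and Runx1 had no call in any of the 6 comparisons. Crebbp, a histone acetyltransferase, was called higher in TFR cells of PP than of pLN d12 (log2 1.82, limma adjusted p = 0.0199), but its other probe gave 0.41 and slide 4 alone read 51480 against 17533 on slide 5. Without slide 4 the difference was 1.04 log2 (adjusted p = 0.0701).

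**Figure D4:**
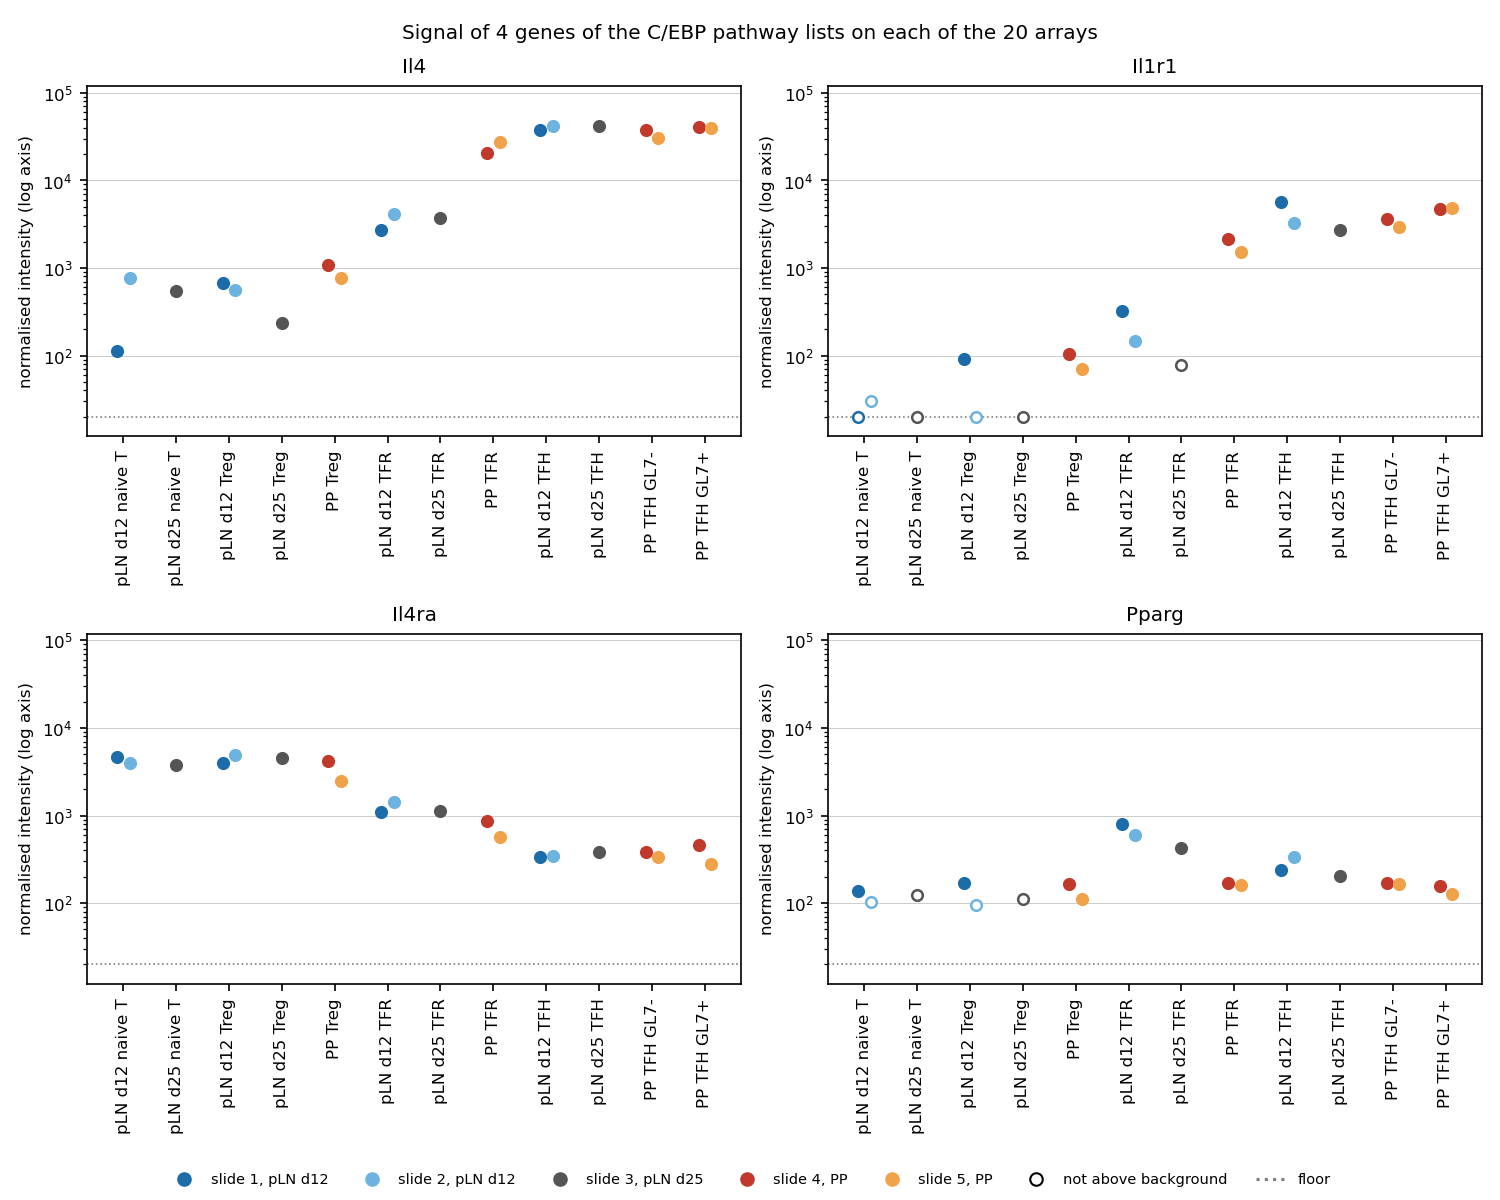
Normalised intensity (log axis) of Il4, Il1r1, Il4ra and Pparg on each of the 20 arrays, by group. Colours stand for slides, open points for arrays on which the probe was not above background, and the dotted line for the floor of 20. Il4ra runs from 276 to 4961 and is lowest in TFH cells, while Pparg is highest in TFR cells of pLN.

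Of 24 known targets, in myeloid, liver and fat cells but for the T-cell cytokine Il4, 17 were tested. Mpo, S100a8, Ltf, Ptgs2, Alb, Saa3 and Cd14 failed the filter on dim probes. Among the tested myeloid genes, Csf3r, Elane, S100a9, Camp and Lcn2 were not called in any of the 6 comparisons. Csf2ra, a receptor chain for granulocyte-macrophage colony-stimulating factor, rose from naive T to TFH cells (log2 1.2, SE 0.24, limma adjusted p = 0.00501) and from Treg to TFR cells of pLN d12 (log2 1.11, SE 0.24, limma adjusted p = 0.0142). The first call was lost without naive T replicate 1 (adjusted p = 0.0511) and the second without any 1 of its 4 arrays (0.0634 to 0.0905). Il4, the TFH cytokine in this list, read 114 and 763 in naive T cells and 37251 and 41531 in TFH cells of pLN d12 (log2 7.06, SE 0.66, limma adjusted p = 4.84e-05). TFR cells were intermediate in pLN d12, at 2697 and 4169 against 668 and 555 in Treg cells (log2 2.46, SE 0.66, limma adjusted p = 0.0381), a call that was lost on leaving out any 1 of the 4 arrays (adjusted p 0.102 to 0.201). In PP, TFR cells reached 20574 and 27193, against 1085 and 762 in Treg cells (log2 4.70, SE 0.66, limma adjusted p = 0.0012), and GL7+ TFH cells 41018 and 40009. Without slide 4 the PP difference was 5.16 log2 with an adjusted p of 0.0852. The difference between TFR cells of PP and pLN d12 was 2.82 log2 (limma adjusted p = 0.0171), and it missed the threshold with slide as a random block (adjusted p = 0.113), without slide 4 (0.136) and without any 1 of the 4 arrays (0.0532 to 0.115). Il4 and Cebpd thus shared the order of TFH cells over PP TFR, pLN TFR and Treg cells.

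Fat-cell targets had calls in 2 genes. Pparg, the fat-cell regulator that also acts in Treg cells of fat tissue, read 797 and 592 in TFR cells of pLN d12 and 420 at d25, against 171 and 94 and 111 in Treg cells (log2 2.44, SE 0.32, limma adjusted p = 0.00123 at d12). The Treg values 94 and 111 were not above background. In TFR cells of PP it read 169 and 160, lower than in pLN d12 TFR cells (log2 -2.06, SE 0.32, limma adjusted p = 0.00261) and not called against PP Treg cells at 163 and 111. Pparg thus ran opposite to Cebpa and Cebpd between the TFR cells of the tissues. Fabp4, a fatty acid carrier, was under background in PP Treg cells and read 253 and 288 in PP TFR cells, at least 7.96-fold more (limma adjusted p = 0.00362). GL7+ TFH cells of PP read 114 and 405. From naive T to TFH cells of pLN d12, Fabp4 (at least 1.56-fold, limma adjusted p = 0.0305) and Pparg (log2 1.26, limma adjusted p = 0.0192) were called higher too. Both calls were lost with the compared groups alone in the fit (adjusted p = 0.0629 and 0.112). Among the inflammatory targets, Il1rn, the interleukin-1 receptor antagonist, read 1675 and 750 in TFR cells of PP, against 98 and 33 in Treg cells of PP (log2 4.31, SE 0.63, limma adjusted p = 0.00149) and 100 and 45 in TFR cells of pLN d12 (log2 4.05, SE 0.63, limma adjusted p = 0.00261). The values 33 and 45 were not above background, so 1 array of each lower group had no resolved level. GL7+ TFH cells of PP had 118 and 66. From naive T to TFH cells of pLN d12, Il1rn was called higher as well (at least 1.89-fold, limma adjusted p = 0.0167). With the compared groups alone in the fit, that call was lost (adjusted p = 0.0667). Nos2, the inducible nitric oxide synthase, was lower in TFH than in naive T cells (log2 -2.06, limma adjusted p = 0.00492), a call lost without naive T replicate 1 (0.0527). From Treg to TFR cells of PP it was lower too (log2 -1.80, limma adjusted p = 0.0171), lost without slide 4, PP TFR replicate 2 or PP Treg replicate 1 (adjusted p 0.103 to 0.186). Tnf rose from naive T to TFH cells by 2.08 log2 (limma adjusted p = 0.00492), and without naive T replicate 1 its adjusted p was 0.0519. Il6, an inflammatory cytokine, was at the floor in PP Treg cells and averaged 82 in PP TFR cells, at least 2.33-fold more (limma adjusted p = 0.00716, and 0.0618 without PP TFR replicate 2).

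Whether the Treg to TFR step or the tissue difference itself differed was tested for the 43 genes with interaction terms. No list gene was called for the step in PP against pLN d12, where 0.548% of tested probes were called, or for the tissue difference of TFR against TFH cells, where 0.611% were. At an unadjusted p below 0.05 stood 8 genes in each. The lowest adjusted p for the step was that of Hlf (0.0755), followed by Pparg (log2 -2.15, SE 0.45, limma adjusted p = 0.0843), and for the tissue difference that of Il1rn (log2 4.45, SE 0.89, limma adjusted p = 0.0695).

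**Figure D5:**
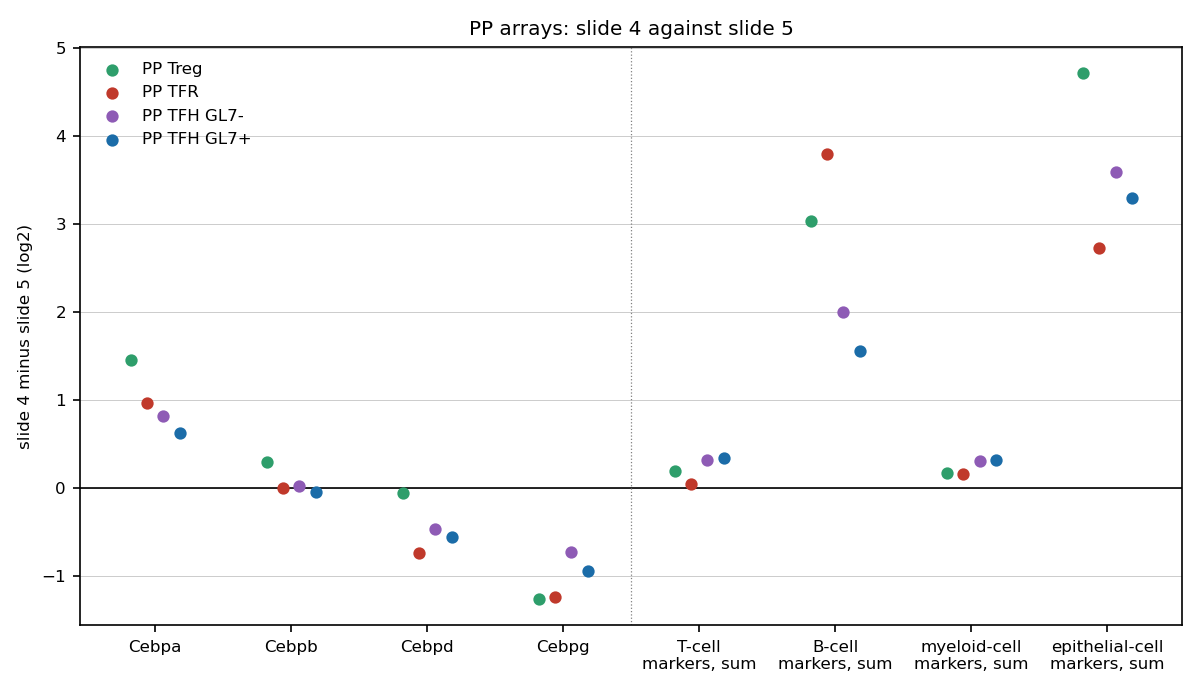
Log2 difference of slide 4 minus slide 5 for the 4 C/EBP genes and for summed marker intensities, with a point for each of the 4 PP groups. B-cell and epithelial marker sums lie far above 0 and T-cell and myeloid sums close to it, while Cebpa lies at 0.62 to 1.46 and Cebpg at -1.26 to -0.73.

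The slides of PP moved the members in different directions. Relative to slide 5, slide 4 gave more Cebpa in all 4 groups (log2 0.62 to 1.46), between -0.05 and 0.29 log2 for Cebpb, less Cebpd (-0.74 to -0.06) and less Cebpg (-1.26 to -0.73). Within-slide steps from PP Treg to TFR cells were 6.03 and 6.54 log2 for Cebpa, 1.44 and 1.73 for Cebpb, 2.88 and 3.56 for Cebpd and 0.16 and 0.14 for Cebpg on slides 4 and 5. With 1 array per group on a slide, these steps have no replicate within a slide, and the part of the B-cell and epithelial transcripts of slide 4 in them was not tested.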

How the data were processed

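RNA of sorted CD4 T-cell pools was amplified, labelled and hybridised to single-colour Agilent arrays by the authors, from 50 ng of RNA for slides 1 and 4 and from 40 ng for the other slides. The deposited scanner files hold, per printed feature, background-subtracted intensity from Agilent Feature Extraction 10.7.3.1, beside the mean and local background intensity. The authors' series matrix holds linear intensity, quantile normalised by them with a floor of 20, and served as an alternative.

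The study's own steps were repeated on the scanner files. The 4 printed features of each of the 39429 probes were combined as a geometric mean once outliers, features beyond 1.42 interquartile ranges and features with uneven pixels (coefficient of variation over 0.5) had been dropped, which removed 13230 to 19426 of the 157716 features of an array. Quantile normalisation followed, then scaling (75th percentile at 1500), the floor of 20 and the log2 transformation. The rebuilt member values differed from those of the authors by at most 0.162 log2.

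A probe was above background on an array if at least 3 of its 4 features were marked so. The lowest intensity of such a probe was 20 to 144 per array, which sets the level under which values are not resolved. Tested were 22264 probes above background on both arrays of at least 1 of the 8 groups with 2 arrays.

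One linear model with a mean per group was fitted to all 20 arrays with limma 3.58.1 in R 4.3.3 (8 residual degrees of freedom), with d25 arrays assumed to vary like the rest. SEs of the members come from this model. P-values were adjusted by the Benjamini-Hochberg method over all tested probes and used for the pathway lists alone. A gene with several probes was given by its probe of highest mean, and the other probes are given for Csf1r, Trib1 and Crebbp alone. Probes of further genes disagreed too. For TFR cells of PP minus pLN d12, Tnfrsf1a gave -0.34 log2 and 0.79 from its other probe. Stat3 gave -0.48 and 0.30 in that comparison. Named genes were, per comparison, up to 4 called higher and up to 4 called lower with the largest differences, to which genes of interest in each list were added after their values were seen. Gene symbols were matched by accession to a RefSeq table (27515 probes, 2022 of them with another symbol than the array annotation). The script was tested on simulated data.

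The members and all lists were chosen with earlier results of these data known. Alternatives covered the normalisation, the background correction, the floor, the filter, the slide as a block, the groups in the fit, slide 4 and each array left out. Replicates were numbered by order of deposition, and within pLN d12 and within PP those of equal number shared a slide.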

Additional observations from a re-analysis of the deposited data

Results flagged for a closer look

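Hlf, a clock-related relative of the C/EBPs, moved in opposite ways from Treg to TFR cells in the tissues on every slide. In pLN d12 it read 127 and 55 in Treg and 185 and 139 in TFR cells, and in PP 364 and 231 in Treg and 75 and 105 in TFR cells. The rise in pLN d12 was not called (log2 0.95, SE 0.38, limma adjusted p = 0.154). The fall in PP was called (log2 -1.71, SE 0.38, limma adjusted p = 0.0147). That call was lost with the compared groups alone in the fit (adjusted p = 0.158) and without slide 4 (log2 -1.13). The difference between the steps was -2.65 log2 (SE 0.53), with a limma adjusted p of 0.0755, so it was not called. Levels near 100 lie close to the limit of what the arrays resolve, and 1 of the pLN Treg arrays was not above background.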

How the results depend on the processing

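The labels carry no replicate numbers, and arrays of pLN d12 and of PP were paired by slide (correlation of arrays on a slide 0.742). With slide as a fixed block, 20 pathway genes were called for TFH against naive T, 14 for TFR against Treg of pLN d12 and 15 of PP. Of 208 member differences under alternatives, 179 stayed within 1 SD between replicates. Normexp background correction gave Cebpa 6.35 and Cebpd 3.30 log2 for TFH minus naive T of pLN d12, both smaller than the bounds given above. For Cebpd it gave 0.94 for TFR minus Treg of pLN d12, also smaller than its bound, and 2.14 for that step in PP. For PP minus pLN d12 it gave Cebpd 0.38 in Treg and 1.59 in TFR cells. That correction added an offset of 50 to every intensity before normalisation. Such a constant compresses log2 differences most for dim probes, and its share in these smaller values was not tested. Scaling to the 75th percentile alone gave 0.73 for Cebpb in TFR cells of PP minus pLN d12. Without slide 4, Cebpg was 0.82 and 0.56 log2 higher in Treg and TFR cells of PP than of pLN d12. Leaving out each array in turn, Cebpa ranged from 7.04 to 8.48 for TFH minus naive T, from 3.05 to 4.14 and from 5.56 to 7.02 for TFR minus Treg of pLN d12 and of PP, and from -0.06 to 1.40, from 0.94 to 1.89 and from 2.88 to 3.84 for PP minus pLN d12 in Treg, TFH and TFR cells. TFH minus naive T ranged from 0.68 to 1.26 for Cebpb and from 5.03 to 5.96 for Cebpd. TFR minus Treg ranged from 0.67 to 1.11 for Cebpb in pLN d12 and from -0.48 to 0.78 for Cebpg in PP. Leaving out a PP array there unpairs the slides, and within slides 4 and 5 this step of Cebpg was 0.16 and 0.14. PP minus pLN d12 ranged from -0.44 to 0.82 for Cebpg in Treg cells, from 0.61 to 1.2 for Cebpb, from -0.47 to 0.46 for Cebpd and from -0.71 to 0.24 for Cebpg in TFH cells, and from 0.72 to 1.16 for Cebpb and from -0.68 to 0.56 for Cebpg in TFR cells.

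With the compared groups alone in the fit, and so fewer arrays behind the spread, the counts of called pathway genes were 8 for TFH against naive T, 1 for TFR against Treg of pLN d12, 0 of PP, 0 for Treg cells of PP against pLN d12 and 2 for TFR cells. Without slide 4 they were 9 for TFR against Treg of PP and 0 for Treg cells of PP against pLN d12. With slide as a random block they were 0 and 3 for Treg and TFR cells of PP against pLN d12, and without a filter 1 for those Treg cells. Leaving out each array in turn gave 10 to 12 for TFH against naive T, 4 to 8 for TFR against Treg of pLN d12, 0 to 1 for Treg and 4 to 8 for TFR cells of PP against pLN d12. For TFR against Treg of PP it gave 11 to 13. Over all tested probes, the compared groups alone gave 1463, 585, 0, 0, 0 and 648 calls in these 6 comparisons (TFH against naive T, TFR against Treg of pLN and of PP, and PP against pLN d12 for Treg, TFH and TFR), next to 3283, 1858, 2059, 499, 1011 and 2476 with all groups. The 0 calls in TFH cells between the tissues stayed at 0 under all alternatives. Calls of single pathway genes were kept in 501 of 663 instances, and no called gene changed direction.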
